A study of Homo sapiens with 4 samples.

Results

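The MYC, MAX and MXD network was described from the transcripts of its 10 genes in cells of a human line established from a renal carcinoma. The members were taken from a list of symbols: MYC, MYCN, MYCL (listed there under its older symbol MYCL1), MAX, MXD1, MXD3, MXD4, MXI1, MNT and MGA. All 10 were found among the 57820 genes of the deposited table. A short hairpin RNA was expressed in all cells, a non-targeting one in the controls (shNT, 2 libraries) and one against GLUD1 in the others (shGLUD1, 2 libraries), and the cells of both groups were starved of amino acids for 12 h before sequencing, so no fed cells were compared. GLUD1 encodes mitochondrial glutamate dehydrogenase. The labels do not say how many hairpins or clones were used, nor that replicates were separate cultures, so the spread behind each p-value is that of these libraries and may be technical.

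MYC, MYCN and MYCL are basic helix-loop-helix leucine zipper transcription factors that bind DNA as pairs with MAX, at the E-box CACGTG and related sites, and activate genes of growth, ribosome production and division. MXD1, MXI1, MXD3 and MXD4 pair with the same partner, bind the same sites and recruit the SIN3 histone deacetylase corepressor. MNT does likewise and is present in most cells, and MGA joins MAX within a variant Polycomb complex, PRC1.6. The activators and the repressors therefore share 1 partner, and their relative amounts are the usual way of reading this network.

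Promoter sequence was available in the RefSeq windows (GRCh38.p14, 250 bases before to 50 after each start) for 9 of the 10 members. Exact E-boxes, searched as CACGTG (which reads alike on both strands), were present in the windows of 2 of these 9. They lay at position -193 from the start in MNT and at position -238 in MXD4. Of the 8425 genes tested that had a window, 12.8% held one, as did 8.77% of all 27305 genes with a window. Those 8425 were 68% of the symbols tested. The stretches below end where an annotated untranslated region begins. They are shown because MNT and MXD3 were the members with the largest increases and MXD4 carries the other E-box; capitals mark the E-box, and the MXD3 window held none.
MNT, chr17:2401119-2401310, minus strand: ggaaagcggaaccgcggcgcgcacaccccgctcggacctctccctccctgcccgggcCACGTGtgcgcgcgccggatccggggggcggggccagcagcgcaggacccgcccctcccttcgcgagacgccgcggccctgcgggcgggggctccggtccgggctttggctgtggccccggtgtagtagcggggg
MXD4, chr4:2262295-2262359, minus strand: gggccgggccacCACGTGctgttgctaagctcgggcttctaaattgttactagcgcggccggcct
MXD3, chr5:177312758-177313002, minus strand: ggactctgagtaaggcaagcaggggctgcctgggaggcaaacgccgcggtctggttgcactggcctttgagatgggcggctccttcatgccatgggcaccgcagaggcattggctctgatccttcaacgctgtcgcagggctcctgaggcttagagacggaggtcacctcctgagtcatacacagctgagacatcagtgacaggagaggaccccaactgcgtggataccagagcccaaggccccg

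Values are TPM (transcripts per 1000000), which are scaled for transcript length within each library, so levels of different genes can be compared. The sequencing depth is unknown. Fold changes are differences of log2(TPM + 1), shGLUD1 minus shNT, tested with limma over the 12524 genes whose mean reached 1 TPM, with adjusted p under 0.05 as the threshold. The median gene tested was 0.63 log2 units higher in shGLUD1. Each change is therefore also given after median-ratio rescaling, which sets the median gene to no change; this is called the rescaled value. The targeted gene did not separate the groups on TPM. GLUD1 stood at 18.1 and 17.4 TPM in the controls and at 13.5 and 19.8 TPM in the shGLUD1 libraries (log2 fold change -0.11, limma adjusted p = 0.631; rescaled -0.83, adjusted p = 0.00234), so shGLUD1 below means the libraries labelled so. Of 10 markers fixed for a kidney carcinoma line, 6 were above 1 TPM in every library, among them PAX8, VIM and KRT8. PAX2 was at 0 in 3 of 4 libraries and CDH6 did not exceed 0.01 TPM. KRT18 was low, at 1.87 and 1.54 TPM in the controls and at 0.66 and 0.82 TPM in the shGLUD1 libraries. The summed level of these markers ran from 1015 to 1053 TPM in shNT and from 3031 to 3888 TPM in shGLUD1, most of it VIM. That of 8 markers of blood, endothelium, liver, other epithelium and muscle was 1.27 and 2.40 TPM in the controls against 2.52 and 2.56 TPM in the shGLUD1 libraries. Among these DES, the muscle desmin gene, was the 1 that passed the filter, and it rose from 0.52 and 0.75 TPM to 1.86 and 2.18 TPM (0.89, limma adjusted p = 0.00946; rescaled 0.48, adjusted p = 0.0957), a call that was lost without shNT replicate 1. The shNT mean of DES was under 1 TPM, so it passed the filter through shGLUD1, where it was high. The part of these markers in the values below was not tested.

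The repressor genes of the network changed in both directions, but on TPM the called fall was that of MXD1 alone. That call was lost with no filter on low values (limma adjusted p = 0.157) and in fits with a library left out, given below. The MYC and MAX transcripts did not pass the test on TPM. Of the 7 members that passed the filter on low values, MXD3, MXI1 and MNT rose and MXD1 fell, which is 42.9% higher and 14.3% lower, beside 56.7% higher and 7.77% lower among all genes tested. The median over the 7 was 0.23, below the 0.63 of all genes tested. After rescaling the same 3 were higher and the other 4 were lower, beside 23.2% higher and 27.9% lower among all genes. Members that had to pass a filter are a selection, and MYCN, MYCL and MGA were below it. The TPM of 69.9% of all genes tested lay higher in shGLUD1 with no overlap between the groups, and that of 13.5% lay lower, so groups that do not overlap were common.

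**Figure D1:**
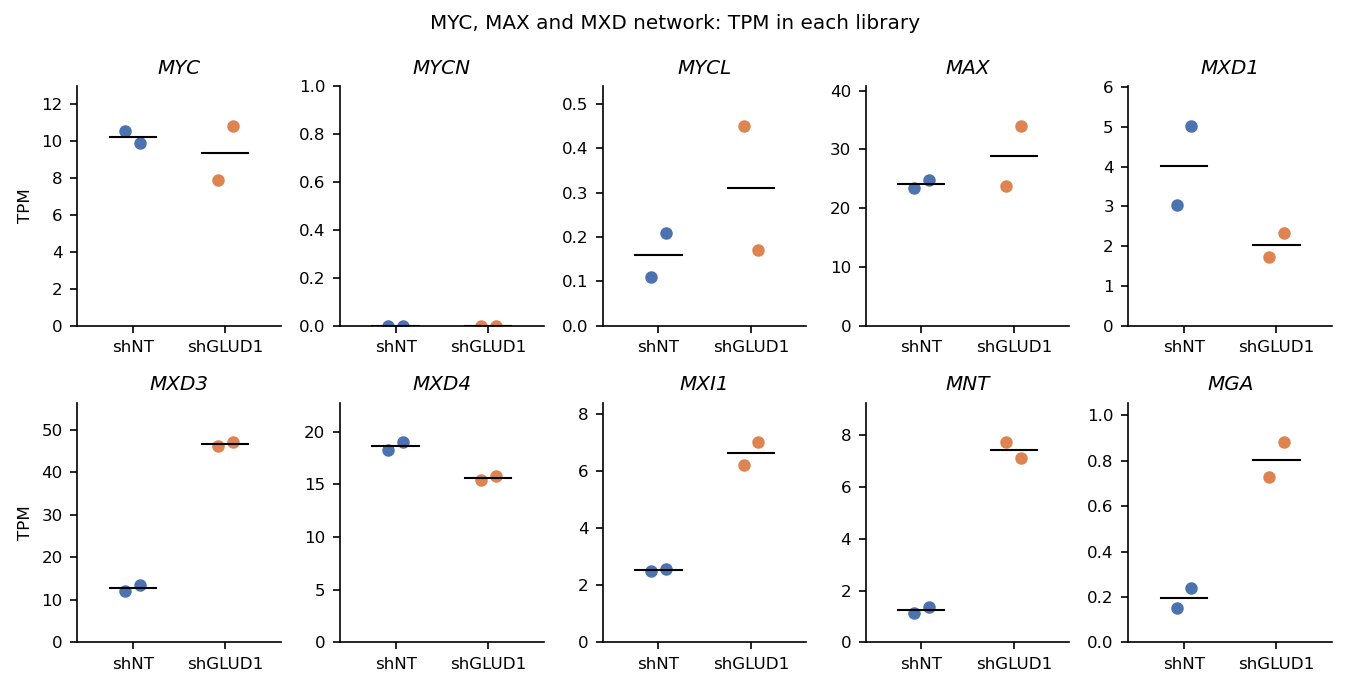
TPM of each of the 10 members (vertical axes start at 0 and differ between panels) in the 2 shNT and the 2 shGLUD1 libraries; points are libraries and lines are group means. The shGLUD1 points of MXD3, MXI1, MNT and MGA lie above both shNT points, those of MXD1 and MXD4 lie below, and those of MYC, MYCL and MAX overlap, while MYCN is at 0.

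Among the activators, MYC was the one expressed at an appreciable level. It stood at 10.6 and 9.90 TPM in the controls and at 7.91 and 10.8 TPM in the shGLUD1 libraries. The groups overlapped, since replicate 2 of shGLUD1 was above both controls. The mean was 10.2 ± 0.46 TPM (SD, n = 2) for the controls and 9.37 ± 2.1 TPM for shGLUD1, and limma gave a log2 fold change of -0.13 (SE 0.20, adjusted p = 0.595; 0.08 without shGLUD1 replicate 1). Rescaled, MYC stood at 13.8 and 12.9 TPM in the controls and at 6.53 and 7.74 TPM in the shGLUD1 libraries, no longer overlapping, and its value was -0.82 (SE 0.16, limma adjusted p = 0.00289). Its place among the 12524 genes within each library, which needs no scaling between libraries, went from the percentiles 61.8 and 60.5 in shNT to 44.9 and 48.4 in shGLUD1. Its change lay at percentile 15.6 of the changes of all genes tested. MYC thus kept its TPM while most genes had a higher TPM.

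The other MYC genes were nearly silent. MYCN, the paralogue best known from neuroblastoma, was listed at 0 TPM in all 4 libraries. MYCL, first known from lung cancer, was listed at 0.11 and 0.21 TPM in the controls and at 0.45 and 0.17 TPM in the shGLUD1 libraries, with overlapping groups. With no filter on low values its log2 fold change was 0.17 (limma adjusted p = 0.419).

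MAX, the partner with which MYC binds DNA and which the other members share, was the most abundant member in shNT. Its level was 23.5 and 24.8 TPM in the controls and 23.7 and 34.0 TPM in the shGLUD1 libraries, where replicate 2 stood apart. The groups overlapped. Limma gave a log2 fold change of 0.23 (SE 0.18, adjusted p = 0.269) and a rescaled value of -0.51 (SE 0.14, adjusted p = 0.0162). It was 0.48 (limma adjusted p = 0.0238) without shGLUD1 replicate 1 and -0.02 without shGLUD1 replicate 2, so the direction of MAX rests on the scaling and on single libraries.

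MXD3, a repressor usually found in dividing cells, had the largest gain in TPM. It stood at 12.0 and 13.4 TPM in the controls and at 46.1 and 47.0 TPM in the shGLUD1 libraries. The groups were far apart relative to their spread, at 12.7 ± 0.96 and 46.5 ± 0.65 TPM (SD, n = 2 each). Limma gave a log2 fold change of 1.80 (SE 0.14, adjusted p = 6.7e-06) and the rescaled value 1.07 (SE 0.13, adjusted p = 0.000422). It lay at percentile 96.3 of the changes of all genes tested, and leaving out any 1 library moved it between 1.72 and 1.87. In GENCODE 29 (GRCh38) MXD3 spans positions 177301461 to 177312757 of chromosome 5 on the minus strand. Its annotated exons share 1158 of 5154 bases with PRELID1, on the opposite strand, and 926 with RAB24, on the same strand. PRELID1, a mitochondrial lipid transfer gene, was far more abundant (742 and 747 TPM in the controls, 566 and 533 TPM in shGLUD1) and fell (-0.44, limma adjusted p = 0.00125), and RAB24 had a value of -0.22 (limma adjusted p = 0.192). Neither neighbour had a higher level in shGLUD1, but how reads were split between the 3 genes is not given in the sources used here, so the level of MXD3 is uncertain.

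MXI1, also called MXD2, rose on TPM. It stood at 2.49 and 2.57 TPM in the controls and at 6.22 and 6.99 TPM in the shGLUD1 libraries, with no overlap (2.53 ± 0.057 and 6.61 ± 0.54 TPM, SD, n = 2 each). Limma gave a log2 fold change of 1.11 (SE 0.22, adjusted p = 0.00154), at percentile 75.9 of all genes. The rescaled value was 0.50 (SE 0.18, limma adjusted p = 0.0429), and that call was lost with any 1 library left out (adjusted p from 0.110 to 0.139). The gene lies at positions 110207605 to 110287365 of chromosome 10 (GRCh38, plus strand), with 3 RefSeq promoter windows, which gene-level values cannot separate.

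MXD1, first described as MAD and known for its rise in differentiating cells, fell. It stood at 3.03 and 5.02 TPM in the controls and at 1.72 and 2.34 TPM in the shGLUD1 libraries. All shGLUD1 values were below both shNT values, but the shNT libraries differed by more than the gap between the groups. Limma gave a log2 fold change of -0.71 (SE 0.27, adjusted p = 0.0396), at percentile 3.86 of all genes, and the rescaled value was -1.26 (SE 0.24, adjusted p = 0.00292). On TPM the call was lost without shNT replicate 2 (-0.42, limma adjusted p = 0.392), shGLUD1 replicate 1 (-0.56, 0.166) or shGLUD1 replicate 2 (-0.86, 0.0683), each with its adjusted p. Rescaled, the value stayed between -1.56 and -0.96 with each library left out, with adjusted p from 0.000799 to 0.0293. MXD1 (chromosome 2, 69897688 to 69942945, plus strand) shares 237 of its 6351 annotated exon bases with SNRNP27, a splicing factor gene on the same strand that rose (0.43, limma adjusted p = 0.0332).

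MXD4 was the most abundant MXD gene in shNT and lost that place to MXD3. Its level was 18.2 and 19.0 TPM in the controls and 15.4 and 15.8 TPM in the shGLUD1 libraries, with groups that did not overlap. The log2 fold change of -0.24 (SE 0.15) did not pass (limma adjusted p = 0.196), whereas the rescaled value of -0.96 did (SE 0.13, adjusted p = 0.00074). The promoter of MNT also holds the E-box shown above for MXD4, and the part of the E-box in either value was not tested.

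MNT had the largest fold change of the 7 members tested. It stood at 1.13 and 1.35 TPM in the controls and at 7.71 and 7.10 TPM in the shGLUD1 libraries. The means were 1.24 ± 0.16 and 7.40 ± 0.43 TPM (SD, n = 2 each), with no overlap. Limma gave a log2 fold change of 1.91 (SE 0.23, adjusted p = 6.8e-05) and the rescaled value 1.36 (SE 0.20, adjusted p = 0.000926). It lay at percentile 97.5 of the changes of all genes tested and stayed between 1.84 and 1.98 when any 1 library was left out. Within the libraries MNT moved from the percentiles 13.9 and 16.7 of all genes tested in shNT to 44.3 and 38.1 in shGLUD1. The gene lies at positions 2384060 to 2401118 of chromosome 17 (GRCh38, minus strand) and overlaps 1 antisense gene that did not exceed 0.72 TPM in any library.

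MGA, the largest of these proteins, was listed at low levels. It stood at 0.15 and 0.24 TPM in the controls and at 0.73 and 0.88 TPM in the shGLUD1 libraries. All shGLUD1 values were above both shNT values. With no filter on low values limma gave a log2 fold change of 0.59 (SE 0.12, adjusted p = 0.0346), beside 24.1% of 24169 genes called higher in that fit, and with rescaling added it was 0.37 (adjusted p = 0.0981). On the log2(TPM + 1) scale a gene this low cannot show a large change.

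**Figure D2:**
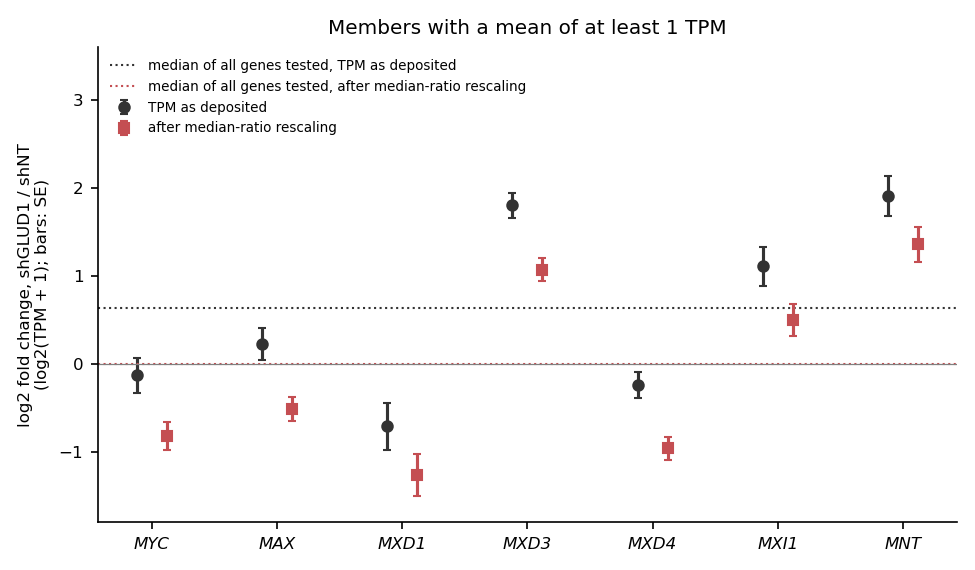
Log2 fold change of the 7 members whose mean reached 1 TPM, shGLUD1 against shNT, on TPM as deposited (circles) and after median-ratio rescaling (squares), with SE from limma; dotted lines are the medians of all genes tested (0.63 and 0). MXD3, MXI1 and MNT lie above the median gene on both scales, MYC, MAX, MXD1 and MXD4 lie below it on both, and MAX changes sign with the scaling.

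The order of the levels changed accordingly. In shNT the means ran MAX, MXD4, MXD3, MYC, MXD1, MXI1, MNT, MGA, MYCL and MYCN, and of these neighbours only MGA and MYCL overlapped in their libraries. In shGLUD1 the order was MXD3, MAX, MXD4, MYC, MNT, MXI1, MXD1, MGA, MYCL and MYCN. There MYC and MNT did not overlap, but the gap between them (7.91 against 7.71 TPM at the nearest) was smaller than the spread of MYC, and MNT and MXI1 were as close (7.10 against 6.99 TPM).

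Shares of the network do not depend on the scaling between libraries. MYC made up 14.8% and 13.0% of the summed TPM of the 10 members in shNT and 7.19% and 8.66% in shGLUD1. MXD3 made up 16.9% and 17.5% in shNT and 41.9% and 37.6% in shGLUD1. MXD4 went the other way, from 25.6% and 24.8% to 14.0% and 12.6%. The 4 MXD genes and MNT together held 51.9% and 54.1% in shNT and 70.2% and 63.3% in shGLUD1. The gain of MXD3 alone was larger than that of this sum, and the level of MXD3 is uncertain. MNT and MXI1 also gained share while MXD1 and MXD4 lost it, so the repressors did not all gain. The summed level of all 10 members was 71.2 and 76.4 TPM in the controls and 110 and 125 TPM in the shGLUD1 libraries, and most of that gain was MXD3.

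**Figure D3:**
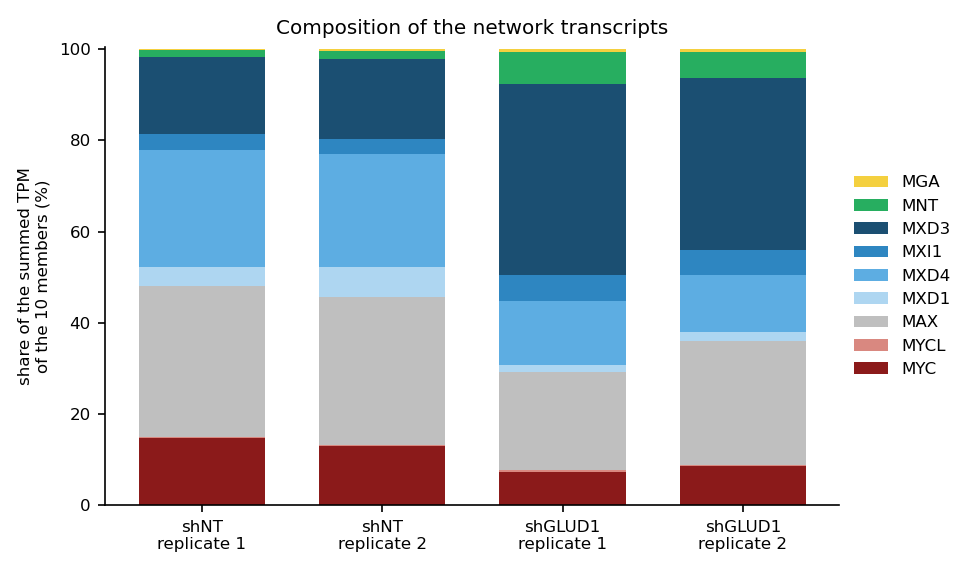
Share of each member in the summed TPM of the 10 members (vertical axis, percent) in each of the 4 libraries; MYCN is at 0. The MXD3 segment grows from 16.9% and 17.5% in shNT to 41.9% and 37.6% in shGLUD1, and the MYC, MXD1 and MXD4 segments shrink.

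Ratios within a library gave the same picture without any scaling. There was 0.450 and 0.400 MYC transcript per MAX transcript in shNT and 0.334 and 0.319 in shGLUD1, a log2 difference of -0.38. MYC stood at 9.34 and 7.33 times MNT in shNT and at 1.03 and 1.53 times MNT in shGLUD1 (log2 difference -2.73). Against the 4 MXD genes together the MYC ratio was 0.295 and 0.248 in shNT and 0.114 and 0.150 in shGLUD1 (-1.05). In shGLUD1 most of that sum was MXD3, whose level is uncertain, so this difference rests largely on MXD3. The repressors also moved against each other: the ratio of MXD3 to MXD4 was 0.660 and 0.705 in shNT and 2.98 and 2.97 in shGLUD1 (2.13), and that of MXI1 to MXD1 was 0.822 and 0.512 in shNT and 3.62 and 2.99 in shGLUD1 (2.34). In each of these 5 ratios the groups did not overlap. Such separation was common for single genes on TPM (69.9% higher and 13.5% lower), and its frequency among ratios of other genes was not computed. For 2 libraries against 2, an exact two-sided permutation test cannot give a p below 0.333, which is the value each of the 5 had, among 13 ratios computed and before any adjustment.

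The 3 genes whose pattern over the 4 libraries was nearest to that of MYC were MRPL42, a mitochondrial ribosomal protein gene, MKNK1, a kinase of the translation factor eIF4E, and SRP72, a subunit of the signal recognition particle, at Euclidean distances of 0.0391, 0.0488 and 0.0708 in centred log2(TPM + 1). In all, 191 of the 12524 genes tested lay within 0.2 of MYC, so these 3 were not alone in lying near it.

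The proteins that work with the network were read as lists, by counts beside the background of 56.7% higher and 7.77% lower. For the rescaled counts of this and the following lists, the background was 23.2% higher and 27.9% lower. Of 11 tested SIN3 corepressor genes, through which the MXD proteins and MNT repress, 7 rose and 1 fell (63.6% and 9.09%; median 1.02), and 4 were higher and 2 lower rescaled. SIN3A, the scaffold of the complex, stood at 0.90 and 1.03 TPM in the controls and at 6.38 and 6.11 TPM in the shGLUD1 libraries. Its log2 fold change was 1.88 (limma adjusted p = 7.9e-05, rescaled 1.36). The shNT mean of SIN3A was under 1 TPM, so it passed the filter through shGLUD1, where it was high. The other 6 genes that rose had shNT means of at least 1 TPM. The histone binding subunits RBBP4 and RBBP7 rose (1.84 and 1.44, rescaled 1.13 and 0.69), as did the deacetylase HDAC2 (1.52, rescaled 0.78). BRMS1, a subunit named after its value was seen, fell (-0.81, rescaled -1.57), and SIN3B did not pass (0.46, limma adjusted p = 0.051).

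Of 17 tested coactivators and partners of MYC, 12 rose and 3 fell (70.6% and 17.6%; median 0.95), and 6 were higher and 5 lower rescaled. Of the 12, BPTF, CCNT1, CREBBP, EP300 and EP400 had shNT means under 1 TPM and passed the filter through shGLUD1, where they were high, so the count is not a share of the whole list; it was 7 where a mean of 5 TPM was required and 9 with no filter. BPTF, the large subunit of the NURF remodelling complex, rose (1.61, rescaled 1.15), from 0.78 and 0.57 TPM in shNT to 2.58 and 6.31 TPM in shGLUD1. HCFC1, a chromatin scaffold that binds MYC, ACTL6A, an actin-related subunit, and PAF1, of the elongation complex of that name, rose by 1.57, 1.48 and 1.30 (rescaled 0.93, 0.75 and 0.56). The 3 that fell, named after their values were seen, were the acetyltransferase genes KAT5 (-0.73) and KAT2A (-0.55) and the chromatin remodelling gene SMARCB1 (-0.34). KAT5 kept its call with any 1 library left out. Those of KAT2A and SMARCB1 were lost without either shNT library or without shGLUD1 replicate 1 (limma adjusted p from 0.0835 to 0.222 and from 0.0567 to 0.158).

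Among 11 tested genes of the PRC1.6 complex of MGA, 6 rose (54.5%, near the background; median 0.61) and 0 fell by limma, also 0 at an unadjusted p under 0.05 and 0 without a variance trend. The 6 became 3 without shNT replicate 1, without shGLUD1 replicate 2 or with no filter on low values. Rescaled, 1 was higher and 2 were lower. E2F6, a repressive E2F, and TFDP1, its dimer partner, rose on TPM (1.03 and 0.66), but neither rescaled value passed (0.43 and -0.09), and the call of E2F6 was lost without shNT replicate 1 (limma adjusted p = 0.0732) or shGLUD1 replicate 2 (0.0644).

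The list of genes that control the turnover of the MYC protein had the highest median of those read, 1.21, or 0.62 rescaled. Of 19 tested, 14 rose (73.7%) and 0 fell by limma, also 0 at an unadjusted p under 0.05 and 0 without a variance trend, and 10 were higher and 3 lower rescaled. SKP2, an F-box protein that ubiquitinates MYC, stood at 1.35 and 0.82 TPM in the controls and at 9.93 and 13.6 TPM in the shGLUD1 libraries (2.61, limma adjusted p = 2.0e-05, rescaled 2.06). HUWE1, another ubiquitin ligase of MYC, stood at 5.03 and 3.84 TPM in the controls and at 23.1 and 27.1 TPM in the shGLUD1 libraries (2.27, rescaled 1.59). AURKA, a mitotic kinase that shields MYCN from degradation, and KIAA1524, which encodes the phosphatase inhibitor CIP2A, rose (2.60 and 1.90, rescaled 1.88 and 1.35). SKP2, AURKA and PLK1 also change in level through the cell cycle. FBXW7, the best known ligase of phosphorylated MYC, did not pass (0.65, limma adjusted p = 0.0596). Protein levels were not measured.

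In the MLX branch, whose members pair with MLX in place of MAX, MLX and MLXIP did not pass on TPM (0.33 and 0.06, limma adjusted p = 0.0694 and 0.808), and both were lower rescaled (-0.40 and -0.57, adjusted p = 0.0432 and 0.0227). TXNIP, a target of that branch, was the 1 of 3 tested genes that rose (33.3%). Its value was 3.85 (rescaled 3.31), from control levels of 0.57 and 0.96 TPM to 21.1 and 27.9 TPM. With a shNT mean under 1 TPM it passed the filter through shGLUD1, where it was high, so the count is not a share of the whole branch.

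Genes described in the literature as activated by MYC were read as 3 lists. Of 30 genes of ribosome biogenesis, 18 rose and 2 fell (60% and 6.67%), with a median of 0.46 that was below that of all genes, and 8 were higher and 12 lower rescaled (median -0.30). The list was split. NCL, the nucleolar protein nucleolin, stood at 50.5 and 49.7 TPM in the controls and at 162 and 202 TPM in the shGLUD1 libraries (1.83, limma adjusted p = 2.7e-06, rescaled 1.08), and NOLC1, TCOF1 and DDX18 rose with it (1.65, 1.49 and 1.41). RRP9 and IMP4, small subunit processome genes named after their values were seen, fell (-0.86 and -0.42), and fibrillarin, FBL, did not pass (0.03, rescaled -0.73).

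Of 37 genes of metabolism and growth, 24 rose and 3 fell (64.9% and 8.11%, median 0.87), and 12 were higher and 12 lower rescaled (median 0.18). Among the 24, PPAT had a shNT mean under 1 TPM and passed the filter through shGLUD1, where it was high. PAICS, an enzyme of purine synthesis, stood at 14.2 and 16.5 TPM in the controls and at 69.8 and 91.8 TPM in the shGLUD1 libraries (2.31, limma adjusted p = 2.9e-06, rescaled 1.58). LDHA, lactate dehydrogenase A, and EIF4E, the cap-binding translation factor, rose by 2.18 and 1.81. HSPE1, the mitochondrial co-chaperonin, fell from 868 and 979 TPM to 258 and 262 TPM (-1.82, limma adjusted p = 4.5e-07, rescaled -2.58) and kept its call with any 1 library left out. The other genes that fell, SHMT2 (-0.25) and NME1 (-0.29), named after their values were seen, each lost the call in 3 of the 4 fits with a library left out. The 3 that fell thus became 1 without shNT replicate 1 or shNT replicate 2, and also 1 with no filter, without a variance trend or with length and GC trends removed. ODC1, the polyamine enzyme often used as a MYC target, rose on TPM (0.40) and was lower rescaled (-0.36), so its direction rests on the scaling, and the TPM call was lost in 3 of the 4 fits with a library left out. Of this list 30 genes had a promoter window, and 43.3% of those held CACGTG, beside 12.8% of the genes tested with a window. Before the start alone it was 33.3% beside 11.4%. The genes tested with a window were 68% of the symbols tested. The list was drawn up from described MYC targets, so its share is not independent of that choice. For the other 2 lists of activated genes, and for the repressed genes below, fewer than 80% of the genes had a window. Of the genes with a window, 47.8% held CACGTG in ribosome biogenesis, 36.4% in the cell cycle list and 36.4% among the repressed genes. Before the start alone these shares were 8.7%, 36.4% and 36.4%. With windows missing, activated and repressed genes were not compared for the E-box.

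Of 14 tested entries of the cell cycle list (CKS1B appears under 2 identifiers), 12 rose and 1 fell (85.7% and 7.14%; median 1.12), and 7 were higher and 3 lower rescaled. CUL1, the scaffold of the SCF ubiquitin ligases, rose by 1.78, and E2F2 and MCM4, of the G1 to S transition and the replicative helicase, rose by 1.55 each (rescaled 1.11, 1.23 and 0.84). E2F2 stood at 0.19 and 0.15 TPM in the controls and at 2.35 and 2.52 TPM in the shGLUD1 libraries, so it passed the filter through the group where it was high, as did 1 of the CKS1B entries. The 1 gene that fell was ID2, an inhibitor of helix-loop-helix factors, from 50.2 and 46.6 TPM to 7.21 and 8.28 TPM (-2.50, limma adjusted p = 1.6e-06, rescaled -3.21). CDK4 did not pass (0.15, rescaled -0.61).

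Of 11 tested genes described as repressed by MYC, 6 rose and 1 fell (54.5% and 9.09%; median 0.59, close to that of all genes), and 2 were higher and 4 lower rescaled. The cell cycle inhibitor genes CDKN1A and CDKN1B rose on TPM (0.90 and 1.30, rescaled 0.14 and 0.76), the first with a rescaled value that did not pass. KLF6, a zinc finger transcription factor, rose (1.73, rescaled 1.10). GADD45G, a growth arrest gene, fell from 14.9 and 14.5 TPM to 0.38 and 0.97 TPM (-3.25, rescaled -3.75). The shGLUD1 mean of GADD45G was 0.675 TPM, so it passed the filter through shNT, where it was high. The lists of activated and of repressed genes thus both held genes that moved each way. Among the repressed genes the fall called on TPM was that of GADD45G alone.

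**Figure D4:**
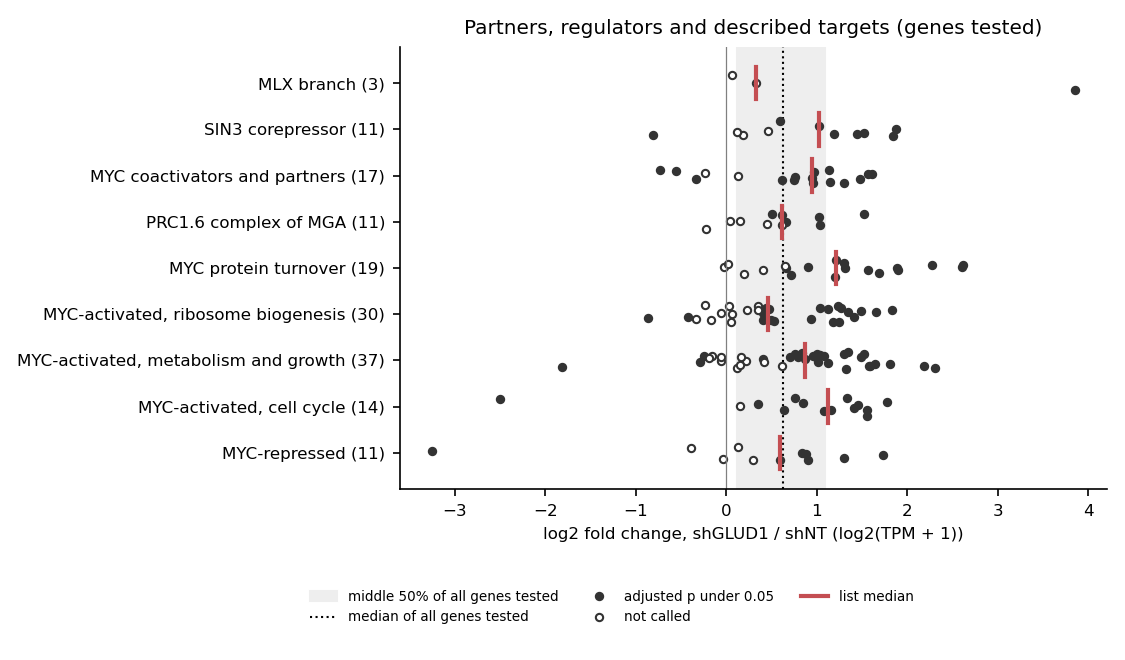
Log2 fold change of each tested gene in 9 lists of partners, regulators and described targets (number tested in brackets); filled points passed limma at an adjusted p under 0.05, red bars are list medians, and the dotted line and grey band are the median and middle 50% of all genes tested (0.12 to 1.09). Medians run from 0.33 in the MLX branch to 1.21 for MYC protein turnover.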

How the data were processed

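Sequencing libraries were prepared from total RNA (1 µg each, TruSeq V2 kit), from cells kept in medium with 10% fetal bovine serum, per the labels' protocols. The deposited table holds TPM for 57820 genes in 4 libraries. Each column sums to 1000000, so TPM were scaled within a library by the authors; they keep no read totals, and intervals or floors from counts cannot be given. Bowtie 0.12.2, hg38 and mm8 are named, without their roles, per the submitters' processing notes; the sources used here do not give the quantifier, the annotation or the use of strand. A gene's TPM falls when others take more of a library.

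Groups came from the sample titles. The 12524 genes whose mean reached 1 TPM were compared as log2(TPM + 1) with limma 3.58.1 in R 4.3.3. The fit used a variance trend (median prior of 8.8 degrees of freedom), two-sided tests and Benjamini-Hochberg adjustment over all genes tested. It was run on simulated data with few genes changed, as many up as down. That check did not cover an overall shift like the one seen here. The pseudocount of 1 understates changes of low genes. Tables and figures used Python 3.11.15 with pandas 2.3.3, numpy 2.4.6 and matplotlib 3.10.9. Positions and exon overlaps are from GENCODE 29, matched by gene identifier, and promoters from RefSeq. The members, the lists and the rule for naming were chosen with earlier results of these data known. The rule took all members, up to 4 called genes of each list with the largest change and non-overlapping groups (or, with fewer than 2 such genes, the 2 of smallest p), the 3 genes nearest to MYC, and GLUD1; others were named after their values were seen. Of the lists, PECAM1 was not found, and a marker is not reported here. The alternatives were a pseudocount of 0.1 TPM, no filter, median-ratio rescaling, a mean of 5 TPM or more, quantile normalization, no variance trend, a replicate block, removal of loess trends with transcript length and GC content (97.9% of genes had both), leaving out each library, ratios on TPM + 0.1, and E-boxes before the start alone. Rescaling together with a left-out library, and with no filter, was added after seeing the data.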

Additional observations from a re-analysis of the deposited data

How the results depend on the processing

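MXD3 and MNT rose under every alternative that could test them; a mean of at least 5 TPM left MNT, MXI1 and MXD1 untested, so 1 member was then higher and 0 lower. Median-ratio rescaling gave 4 lower members and values of -0.82 for MYC (adjusted p = 0.00289), -0.96 for MXD4 (0.00074) and -0.51 for MAX, whose direction turned (0.0162). Quantile normalization gave 3 lower members, -0.86 for MYC (0.00388), -0.89 for MXD4 (0.00236), -0.35 for MAX (0.0867) and 0.36 for MXI1 (0.113). With no filter MXD1 kept -0.71 but lost its call (0.157), leaving 0 lower members by limma (also 0 at an unadjusted p under 0.05), and MGA was called. With 1 library left out, TPM values ranged from -0.33 to 0.08 for MYC, -0.02 to 0.48 for MAX and -1.0 to -0.42 for MXD1, rescaled values from -0.66 to -0.36 for MAX, whose call was lost without shNT replicate 2 or shGLUD1 replicate 1, and from 0.48 to 0.51 for MXI1, whose call was lost each time, lower members numbered 0 to 1, and lower genes among the 150 tested companion genes 7 to 11. Those genes gave 97 higher and 11 lower calls, 50 and 45 after rescaling, 62 and 24 under quantile normalization, and 7 lower without a variance trend. Over all genes, 7105 higher and 973 lower became 2910 and 3491 after rescaling, 2938 and 2764 under quantile normalization, 4676 higher at a mean of at least 5 TPM, where 7833 genes were tested, and 595 lower with length and GC trends removed. The ratio of MGA to MAX differed by 1.39 on TPM + 0.1 against 1.84. The members' E-box count was the same before the start alone. The replicate block gave 8456 changed genes against 8078 and changed no call of a member; the numbers were not treated as pairs, since deviations of same-numbered libraries correlated at 0.0393 over genes. Beside shifts set by rescaling itself or by fewer genes tested, the causes were not tested. Depth is unknown, so what it limits, above all for MGA and MYCL, cannot be stated.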
